A study of Mus musculus with 6 samples.

Results

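The genes described here are the tumour suppressor p53 (Trp53) and 33 genes that it is known to switch on, followed in RNA from kidney endothelial cells of mice whose endothelium carries a DNA-cutting enzyme. The 34 genes were taken by symbol from the deposited matrix of 55487 genes, and each symbol had 1 row. Of these, 31 had a mean of at least 1 FPKM (fragments normalized to exon length and library size) over the 6 libraries and were tested; Psrc1, Eda2r and Cd80 were below that level. The rule names the genes and uses no measured value.

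As background, p53 is a transcription factor that is kept scarce by the ubiquitin ligase MDM2 and is stabilised when kinases such as ATM and CHEK2 sense broken DNA. It then binds paired half-sites near its target genes, which stop the cell cycle (Cdkn1a), start apoptosis (Bax, Bbc3, Pmaip1), aid repair (Ercc5, Rrm2b, Polk) or limit growth and oxidative stress (Sesn1, Sesn2). MDM2 is itself a target, which closes a feedback loop. Because p53 is regulated mainly at the protein level, the RNA of Trp53 measures the message only, and the RNA of its targets is commonly read as its activity.

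The series addressed what DNA damage in endothelium does to heart, kidney and metabolism, here in mice on a high-fat diet. In the I-PpoI group, 3 mice carried VE-cadherin Cre with a Cre-dependent I-PpoI gene, which encodes a homing endonuclease that makes double-strand breaks; the genotype labels of mice 1, 2 and 3 read ROSA26-STOP-I-PpoI, ROSA27-STOP-I-PpoI and ROSA28-STOP-I-PpoI. The control group was 3 wild-type littermates, so no control label names a Cre or I-PpoI allele. Cre is driven by the promoter of an endothelial cadherin, which aims the cut at endothelium, and the whole kidney was digested before cells were taken with beads against CD31. All 6 mice were switched at 8 weeks of age to a diet with 60% of its energy from fat and kept on it for 4 weeks, and all labels give batch 1. Sets of 3 values below are in the order of mice 1, 2 and 3 of the group named. RNA of I-PpoI itself was not analysed here.

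The libraries differed before any p53 target is considered. The FPKM values could be turned back into whole fragments, which numbered 14081256 to 16954585 in the controls, 1590957 for I-PpoI mouse 1, 834149 for mouse 2 and 13324414 for mouse 3. Mice 1 and 2 are called the shallow I-PpoI libraries below. There, 68.2% and 70.6% of mitochondrial fragments lay on minus-strand genes, against at most 0.0821% in the other 4 libraries, and annotated antisense models took 14.7% and 10.02% of all fragments, against at most 0.225%. These 2 libraries stand apart in strand as well as in depth, and a gene's FPKM there may count fragments of the opposite strand rather than its own RNA; this limit holds for every value of I-PpoI mice 1 and 2 given below. Mitochondrial genes took 8.83, 15.1 and 18.3% of all fragments in control mice and 6.42, 38.2 and 48.2% in I-PpoI mice. FPKM as deposited is relative to library size, and the part of these shares in the values as deposited below was not tested. All 13 endothelial markers were present in every library. Their summed level was 2871 to 3108 FPKM in the controls and 2107, 888 and 1471 FPKM in the I-PpoI mice. Of the 13, 11 were lower in every I-PpoI library than in every control, as were 45.1% of all genes averaging 1 FPKM or more. The 10 proximal tubule markers summed to 277 to 989.7 FPKM in the controls and 147, 416 and 1322 FPKM in the I-PpoI mice. None was at 0, and 2 of 10 were higher in every I-PpoI library, beside 2.24% of all genes averaging 1 FPKM or more. Summed levels were 15.8 to 180.2 against 79.1 to 235 FPKM for 6 macrophage markers, 24.5 to 39.9 against 4.54 to 11.8 FPKM for 5 lymphocyte markers and 4.69 to 22.2 against 2.6 to 5.94 FPKM for 4 platelet markers (controls against I-PpoI). Cd3d and Ppbp were at 0 in both shallow libraries, and Gp9 was at 0 in all 3 I-PpoI libraries. By Ddx3y and Xist, the 3 controls and I-PpoI mouse 1 had the male pattern and I-PpoI mice 2 and 3 the female one. The part of cell makeup and sex in the results below was not tested, and fewer cells of a type cannot be told apart from less RNA per cell in such bulk samples.

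p53 reads DNA through a half-site of 10 letters, the p53 half-site consensus, which reads the same on both strands. In the RefSeq promoter table (GRCm38.p6; 250 bases before to 50 after each start), 28 of the 34 genes were found and 12 of them (42.9%) held at least 1 half-site, as did 9.55% of the 27025 genes in the table. Cdkn1a held 2 half-sites at most 13 bases apart, which makes a full site, in 1 of its 2 windows; 0.0740% of all genes held such a pair. The stretches below are shown because they hold letters that match the half-site. They lie beside Trp53 itself, its feedback genes Mdm2 and Ccng1, the arrest gene Cdkn1a and the apoptosis gene Bax. The Trp53, Mdm2, Ccng1 and Bax stretches hold 1 half-site each and no pair, and the Cdkn1a stretch holds 2. They are written 5′ to 3′ on the strand of the gene, from RefSeq, with each half-site in capitals.
Trp53, chr11:69580269-69580308, plus strand: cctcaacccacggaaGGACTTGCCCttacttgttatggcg
Mdm2, chr10:117710920-117710959, minus strand: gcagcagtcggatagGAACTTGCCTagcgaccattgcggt
Ccng1, chr11:40755447-40755486, minus strand: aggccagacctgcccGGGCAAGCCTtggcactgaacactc
Cdkn1a, chr17:29090891-29090952, plus strand: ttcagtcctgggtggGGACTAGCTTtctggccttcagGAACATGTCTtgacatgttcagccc
Bax, chr7:45467075-45467114, minus strand: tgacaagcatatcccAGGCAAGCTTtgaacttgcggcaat
All 5 stretches lie upstream of the gene's start in GENCODE M21, at 51, 162, 136, 24 and 177 bases from it for Trp53, Mdm2, Ccng1, Cdkn1a and Bax. The Bax stretch lies within the gene Gm45808 on the same strand, and no annotated gene covers the other 4. A match of letters is a description of the window, and binding of p53 was not measured in these mice.

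In the control mice the genes ranged widely in expression. Levels are given as FPKM, which is per length and so can be compared between genes. Ephx1, a microsomal epoxide hydrolase, was highest at 137 ± 13 FPKM (SD, n = 3), above 98.3% of tested genes. The antiproliferative gene Btg2 followed at 66.8 ± 6.0 FPKM, and Ephx1 and Btg2 did not overlap. Next came Phlda3 (47.9 ± 13.5 FPKM), Bcl2l1 (41.7 ± 6.97 FPKM) and Fas (38.9 ± 6.02 FPKM), whose ranges overlapped their neighbours'. Cdkn1a ranked 11 of 34 at 22 ± 5.23 FPKM, Trp53 ranked 13 at 17.3 ± 2.04 FPKM and Mdm2 ranked 17 at 8.94 ± 2.17 FPKM. In all, 1 gene was above 100 FPKM, 15 lay between 10 and 100, 15 between 1 and 10 and 3 below 1 FPKM. Of 33 neighbouring pairs in this order, 29 overlapped in range among the 3 controls. The coefficient of variation among controls was lowest for Abhd4 (4.02%) and highest for Pmaip1 (53.6%) among the 31 tested genes, with a median of 16.4%. Bax (47.9%) and Gadd45a (43.5%) also varied widely between control mice.

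**Figure D1:**
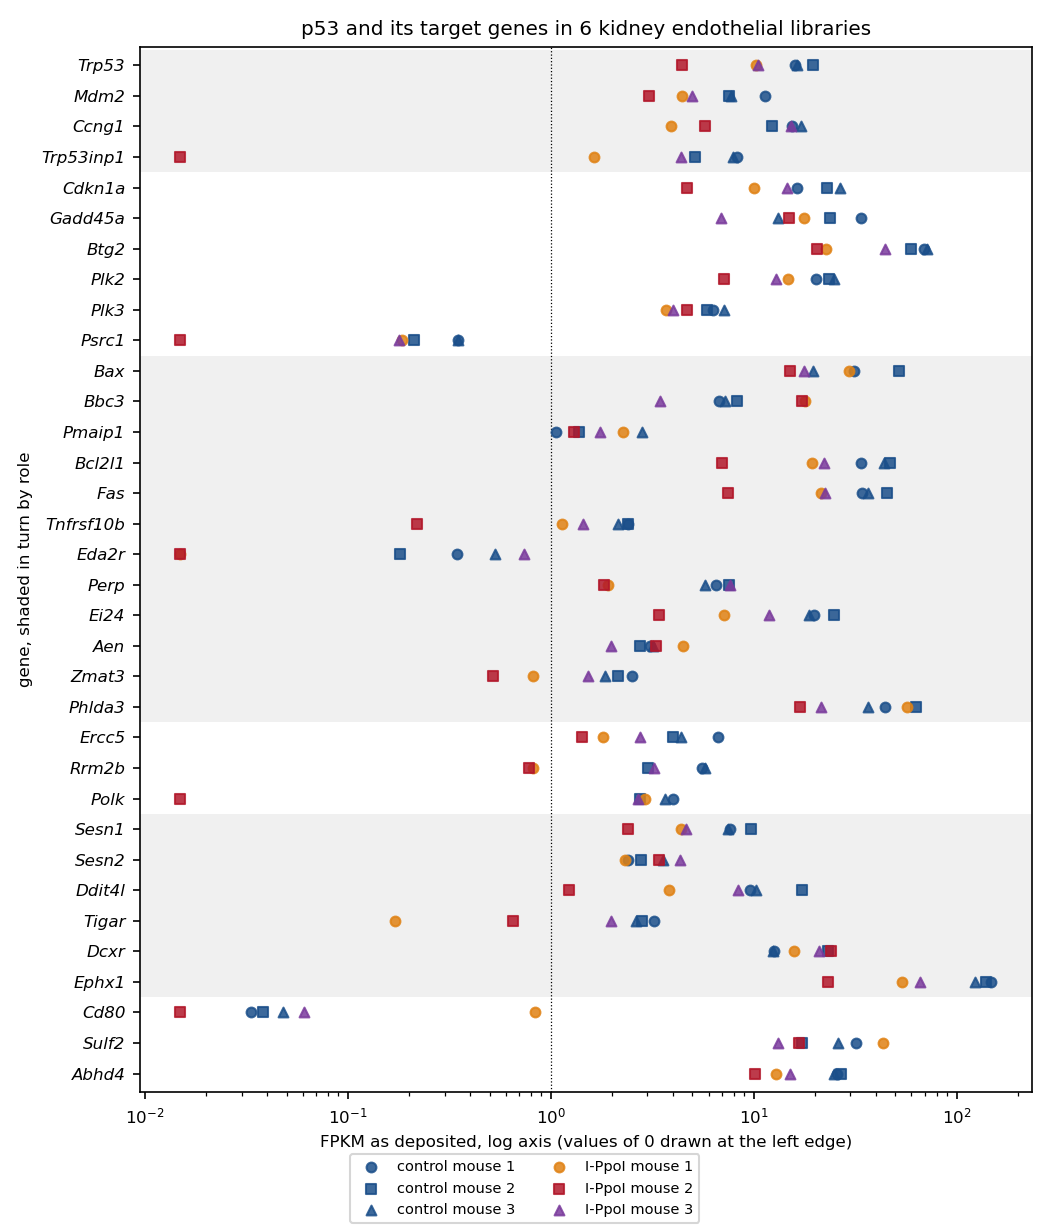
FPKM as deposited (log axis) of the 34 genes in 6 libraries, 1 point per library, with genes ordered by role and values of 0 drawn at the left edge. I-PpoI mouse 2 is the lowest library for most genes, and 5 of the 34 genes were at 0 in it.

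The depth behind these genes was uneven. The 34 genes together held 31459, 27715 and 31813 recovered fragments in the controls and 1899, 527 and 15293 in the I-PpoI mice. The median per gene was 505.5 to 715 fragments in the controls and 321.5 in I-PpoI mouse 3, but 28.5 and 13 in the shallow libraries. In I-PpoI mouse 2, 14 of 34 genes rested on fewer than 10 fragments, and Trp53inp1, Psrc1, Eda2r, Polk and Cd80 on 0. For a count of 0, a fixed floor of 3 fragments would be 0.553 FPKM for Trp53inp1 and 0.645 FPKM for Polk in that library. The floor was used in no fit, and these values entered log2(FPKM + 1) as 0. The 95% exact Poisson interval of a count of 0 reaches higher, to 3.69 fragments. For Trp53 the 15 fragments of I-PpoI mouse 2 have a 95% exact Poisson interval of 8.4 to 24.7, and for Cdkn1a the 14 fragments have one of 7.65 to 23.5. Intervals and floors cover counting error only.

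**Figure D2:**
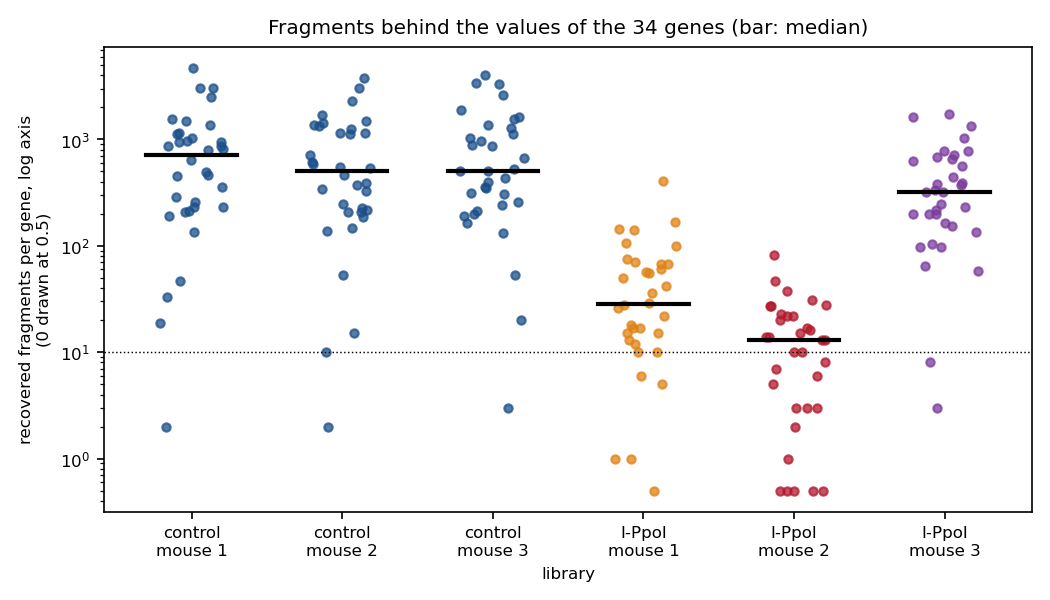
Recovered fragments per gene (log axis, 0 drawn at 0.5) for the 34 genes in each library, 1 point per gene, with the median as a bar and 10 fragments as a dotted line. The medians are 28.5 and 13 in I-PpoI mice 1 and 2 and at least 321.5 in the other 4 libraries.

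The shallow libraries divided fragments between the strands differently at several of these genes, Cdkn1a among them. Exons of the gene AC167363.2 overlap it on the other strand. Cdkn1a held 99.5%, 99.4% and 98.8% of the fragments of the pair in the controls and 98.9% in I-PpoI mouse 3, but 22% (17.1 to 27.6%) and 24.1% (13.9 to 37.2%) in the shallow libraries, with 95% exact Clopper-Pearson intervals in brackets. In counts, AC167363.2 had 5, 7 and 20 fragments in the controls and 8 in I-PpoI mouse 3, against 202 and 44 in the shallow libraries, where Cdkn1a itself had 57 and 14. The growth-arrest gene Gadd45a went the same way against E230016M11Rik, with 90.4% to 91.9% in control mice, 90.6% in I-PpoI mouse 3 and only 13% and 19.6% in the shallow libraries. Ei24 held at least 99.4% against Gm26787 in the controls and I-PpoI mouse 3, and 20.1% and 13.5% in the shallow ones. Rrm2b held at least 97.9% against Gm49085 in the first 4 and 22.6% and 24% in the last 2. At these 4 genes the shallow libraries did not overlap the other 4. Plk3 also held less against Tctex1d4, at 45.5% and 71.4% in the shallow libraries and 99.1 to 100% in the other 4. In all, 7 of the 34 genes have an exon of another gene across from them, 12 more have an opposite-strand gene within 5 kb of an exon, and 15 have neither and are called strand-clear here.

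**Figure D3:**
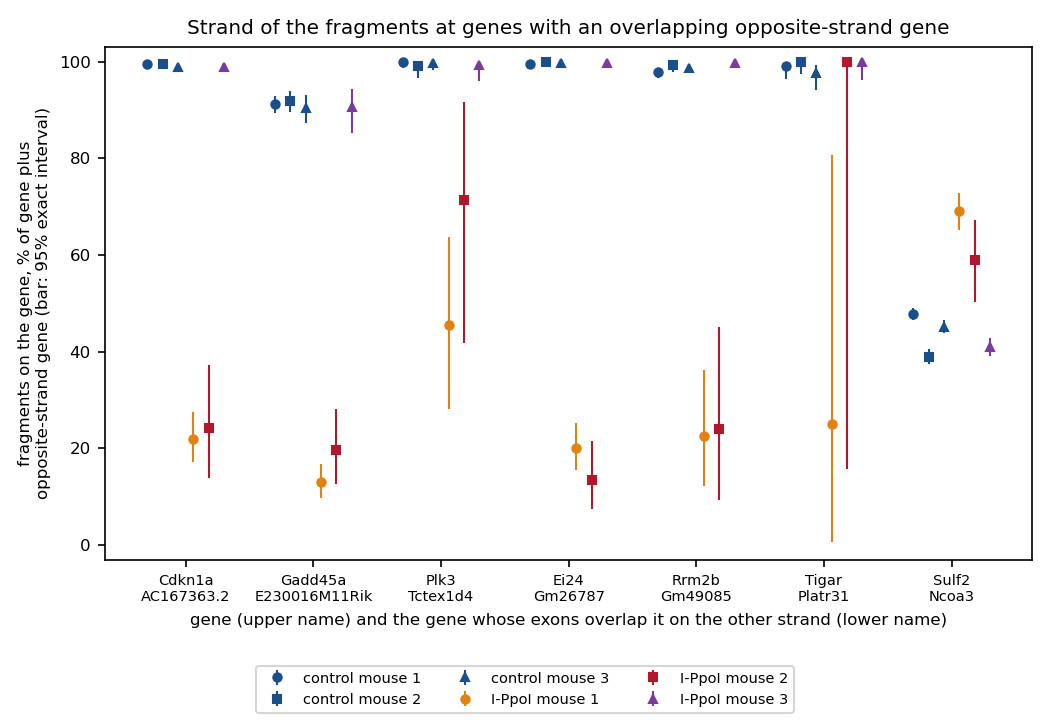
Share of fragments on each gene, as a percent of that gene plus the gene overlapping its exons on the other strand, for 7 genes in 6 libraries; bars are 95% exact Clopper-Pearson intervals. For Cdkn1a, Gadd45a, Ei24 and Rrm2b the shares of I-PpoI mice 1 and 2 are at most 24.1%, and those of the other 4 libraries at least 90.4%.

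Between the groups, none of the 31 tested genes passed. Limma on log2(FPKM + 1) called 0 of 31 at adjusted p under 0.05 in either direction, with 16 at unadjusted p under 0.05, all lower; over all 14962 tested genes it called 0 (0% in each direction), with 32.2% at unadjusted p under 0.05 on the lower side and 4.23% on the higher. The whole distribution lay low: the median log2 fold change, I-PpoI minus control, was -0.65 over all tested genes and -0.96 over the 31 genes, of which 26 lay below 0, as did 71.6% of all. In 18 of the 31 (58.1%) every I-PpoI library lay below every control, and 45.1% of all tested genes did so; no p53 gene had every I-PpoI library above every control, against 2.24% of all. The call rested on the deep I-PpoI library: without I-PpoI mouse 3, limma called 21 of the 31 genes, Bbc3 higher and 20 lower, beside 19.8% of all tested genes higher and 36.6% lower, and those values come from the 2 shallow libraries alone. Rescaling each library to a common FPKM total called 17 of the 31 lower (31.7% of all genes), and array weights 14 lower (26.5%). The pseudocount of 1 makes fold changes of genes at low levels too small.

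Each library was therefore also divided by a median-of-ratios factor, which brings the median of all genes to 0.02, and values so divided are called scaled FPKM. Limma again called 0 of 31 genes and 0 of 14962 (0% in each direction). At unadjusted p under 0.05 there was 1 gene higher, Dcxr, and 0 lower, beside 5.43% and 2.87% of all tested genes. The groups did not overlap for Dcxr (higher; 7.65% of all genes) and Ephx1 (lower; 9.76% of all genes). The median log2 fold change of the 31 genes was -0.25, with 10 above 0 and 21 below, beside 50.8% of all tested genes above and 49.2% below. Without I-PpoI mouse 3, limma called Aen and Bbc3 higher and Ddit4l, Ei24, Ephx1, Rrm2b, Tigar and Trp53inp1 lower (8 of 31, beside 23.8% of all genes higher and 13.9% lower), and with array weights Bbc3 higher and Trp53inp1 lower (beside 21.9% and 8.21%). Without the shallow libraries it called none of the 31, and the median of the 31 genes was 0.0345. By library, the median distance of the 31 genes from the control mean was -0.22, -0.46 and 0.013 in the I-PpoI mice.

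**Figure D4:**
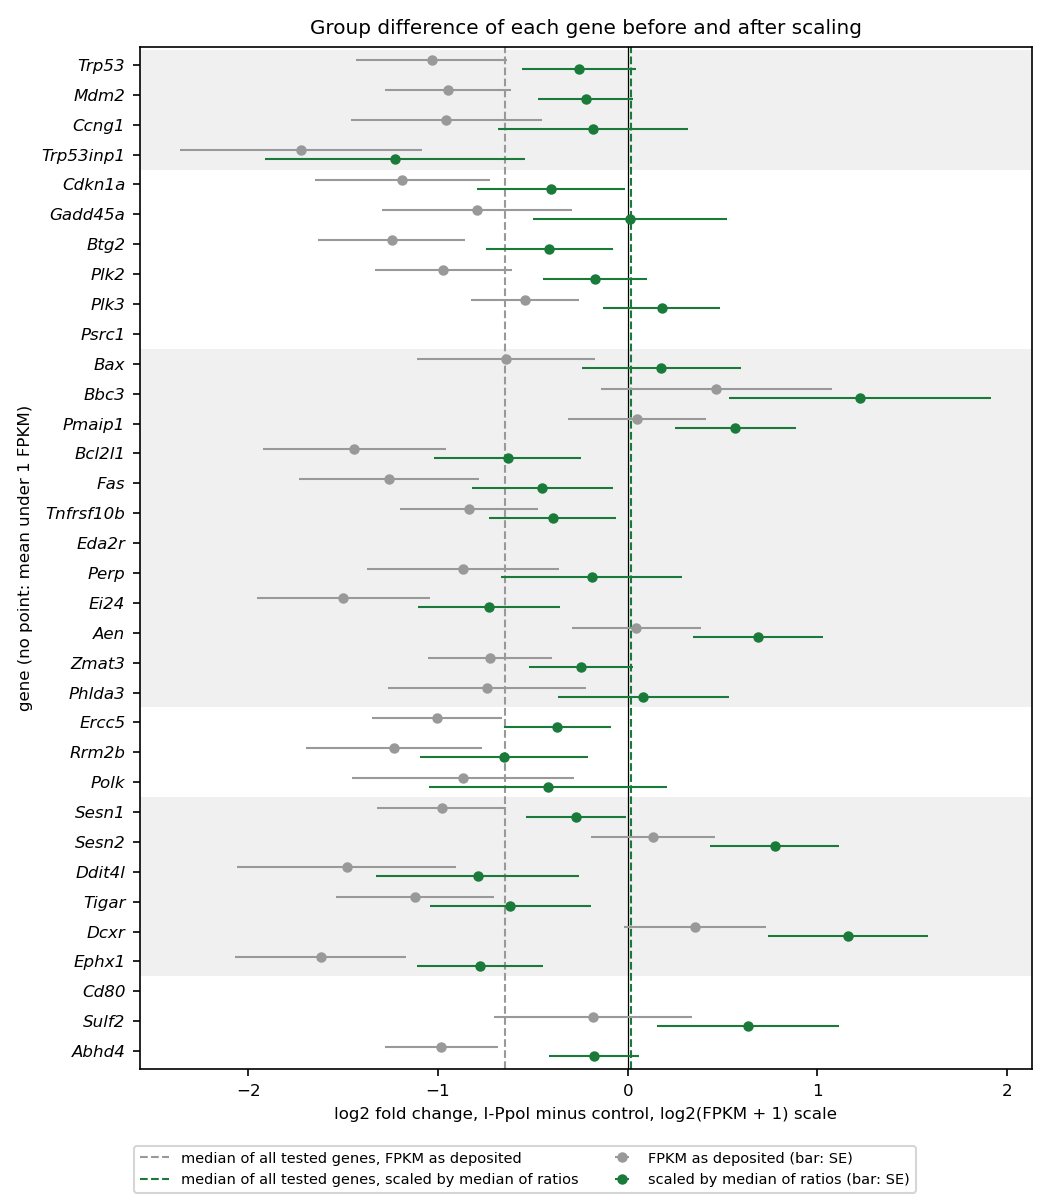
Log2 fold change (I-PpoI minus control, log2(FPKM + 1) scale) of the 31 tested genes with its SE, from FPKM as deposited (grey) and scaled (green); dashed lines are the medians of all 14962 tested genes, at -0.65 and 0.02. Most grey points lie left of 0 with the grey line, and the green points lie on both sides of 0.

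Trp53 (ENSMUSG00000059552, GRCm38 chromosome 11, 69580359 to 69591873, plus strand) was at 16, 19.6 and 16.3 FPKM in control mice and 10.3, 4.43 and 10.5 FPKM in I-PpoI mice. All 3 I-PpoI libraries lay below the controls as deposited, at 8.42 ± 3.46 FPKM in the I-PpoI group and 17.3 ± 2.04 FPKM in the controls (SD, n = 3 each). An exact two-sided permutation test gave p = 0.10, the smallest that 3 against 3 allows. Scaled, Trp53 was at 11, 14.7 and 12.7 scaled FPKM in control mice and 12, 7.51 and 12.6 scaled FPKM in I-PpoI mice. Then only I-PpoI mouse 2, on 15 fragments, lay outside the control range, and the log2 fold change was -0.26 (SE 0.30, limma adjusted p = 0.615), with exact permutation p = 0.40. With factors from the strand-clear genes described above the fold change turned to 0.0234, and leaving out 1 library moved it between -0.40 (without I-PpoI mouse 3) and -0.02 (without I-PpoI mouse 2), with -0.17 without control mouse 2. Wrap53, on the opposite strand within 5 kb, left Trp53 with 83.3 to 89.98% of the fragments of the pair in every library. Exons of Trp53 and Wrap53 do not overlap, so this share does not tell on which strand fragments of Trp53 were counted.

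Mdm2 (ENSMUSG00000020184, GRCm38 chromosome 10, 117688875 to 117710758, minus strand), the ligase that degrades p53, was at 11.4, 7.59 and 7.78 FPKM in control mice and 4.42, 3.05 and 4.98 FPKM in I-PpoI mice. The groups did not overlap as deposited. Scaled, it was at 7.88, 5.7 and 6.05 scaled FPKM in control mice and 5.13, 5.18 and 5.98 scaled FPKM in I-PpoI mice, with I-PpoI mouse 3 inside the control range, mice 1 and 2 just below it, and a log2 fold change of -0.22 (SE 0.25, limma adjusted p = 0.605), which turned to 0.0417 with factors from strand-clear genes and was -0.10 without control mouse 1. Ccng1, a cyclin that recruits a phosphatase to MDM2, was at 15.4, 12.3 and 17.2 FPKM in control mice and 3.91, 5.78 and 15.3 FPKM in I-PpoI mice. Here I-PpoI mouse 3 lay inside the control range and the shallow libraries below it, on 22 and 17 fragments. Trp53inp1, a cofactor of p53-dependent death and autophagy, was at 8.33, 5.14 and 7.88 FPKM in control mice and 1.64, 0 and 4.38 FPKM in I-PpoI mice. Its scaled log2 fold change was -1.23 (SE 0.69, limma adjusted p = 0.353), and it rests on 17 fragments in I-PpoI mouse 1 and 0 in mouse 2. The value was -0.52 without I-PpoI mouse 2, -1.89 without mouse 3, -0.48 by limma-voom and -2.35 with a pseudocount of 0.1.

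Among the genes of cell-cycle arrest, Cdkn1a (ENSMUSG00000023067, GRCm38 chromosome 17, 29090976 to 29100727, plus strand), the cyclin-dependent kinase inhibitor p21, was at 16.4, 23 and 26.7 FPKM in control mice and 10.003, 4.7 and 14.6 FPKM in I-PpoI mice. The groups did not overlap as deposited (exact permutation p = 0.10). Scaled, Cdkn1a was at 11.3, 17.3 and 20.8 scaled FPKM in control mice and 11.6, 7.98 and 17.5 scaled FPKM in I-PpoI mice. I-PpoI mouse 2 was then lowest and mice 1 and 3 lay inside the control range, with a log2 fold change of -0.41 (SE 0.39, limma adjusted p = 0.546) and exact permutation p = 0.50. Without the shallow libraries the fold change was 0.155. It was -0.12 without I-PpoI mouse 2, -0.69 without I-PpoI mouse 3, -0.64 without control mouse 1 and -0.23 without control mouse 3. The strand shares of Cdkn1a given above apply to mice 1 and 2, and their part in these values was not tested.

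Btg2, which recruits the deadenylase complex and slows proliferation, was at 69, 60.0 and 71.3 FPKM in control mice and 22.7, 20.5 and 44.6 FPKM in I-PpoI mice. It was the most abundant arrest gene in every library, and the I-PpoI libraries lay below the controls. Plk2, a polo-like kinase induced by stress, was at 20.4, 23.6 and 24.8 FPKM in control mice and 14.9, 7.18 and 12.9 FPKM in I-PpoI mice, again without overlap. Plk3, its relative, was at 6.31, 5.9 and 7.18 FPKM in control mice and 3.7, 4.72 and 4.0 FPKM in I-PpoI mice. The I-PpoI libraries lay below the controls, on 15 and 10 fragments in the shallow ones, where the strand shares given above apply. Gadd45a, a stress sensor that binds cyclin-dependent kinase complexes and PCNA, was at 33.8, 23.7 and 13.2 FPKM in control mice and 17.7, 14.9 and 6.93 FPKM in I-PpoI mice. The groups overlapped, and the lowest library was I-PpoI mouse 3, whose strand matched the controls. Psrc1, a spindle protein, was between 0.211 and 0.351 FPKM in the controls and was not tested. Scaled, 2 of the 5 tested arrest genes (Gadd45a and Plk3) lay above 0 and 3 below, with log2 fold changes of -0.41 to 0.18. The groups of all 5, Btg2, Plk2 and Plk3 among them, overlapped when scaled.

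The apoptosis genes were split. Bax, the pore-forming effector of the mitochondrial pathway, was at 31.2, 52 and 19.6 FPKM in control mice and 29.7, 15.1 and 17.7 FPKM in I-PpoI mice. The groups overlapped, and the control mice ranged more widely than the I-PpoI mice. Across from Bax within 5 kb, Gm10252 had 218, 266 and 242 fragments in the controls and 6811, 5043 and 163 in the I-PpoI mice. Bax thus made up 78.5, 81.3 and 68.4% of the pair in the controls and 1.09, 0.395 and 69.5% in the I-PpoI mice. Exons of Bax and Gm10252 do not overlap, so this share does not tell on which strand fragments of Bax were counted. Bbc3, which encodes the BH3-only protein PUMA, was at 6.73, 8.26 and 7.22 FPKM in control mice and 17.9, 17.4 and 3.46 FPKM in I-PpoI mice. It was high in the shallow libraries, on 61 and 31 fragments, and lowest of all 6 libraries in I-PpoI mouse 3, on 98. Its scaled log2 fold change, 1.23 (SE 0.69), was the most positive of the 31 genes, with a limma adjusted p of 0.355. Sae1, on the opposite strand within 5 kb of Bbc3, had 1043, 1134 and 1085 fragments in the controls and 43, 17 and 448 in the I-PpoI mice. Bbc3 thus made up 17.9 to 19.3% of the pair in 4 libraries and 58.7% and 64.6% in the shallow ones. Exons of Bbc3 and Sae1 do not overlap either. Pmaip1, which encodes NOXA, lay between 1.06 and 2.83 FPKM in the controls and between 1.31 and 2.28 FPKM in the I-PpoI libraries, inside the control range.

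Bcl2l1, the survival protein BCL-X of the same family, was at 33.9, 47.3 and 44 FPKM in control mice and 19.4, 7.03 and 22.1 FPKM in I-PpoI mice. The groups did not overlap, on 143 and 27 fragments in the shallow libraries. The gene is strand-clear, which means only that no gene lies on the opposite strand within 5 kb of its exons. Whether its own fragments were all counted in the shallow libraries was not tested. Fas, the death receptor, was at 34.2, 45.7 and 36.7 FPKM in control mice and 21.5, 7.52 and 22.6 FPKM in I-PpoI mice, also without overlap. The second death receptor, Tnfrsf10b, was at or below 2.41 FPKM in every library and rested on 1 fragment in I-PpoI mouse 2. Eda2r, a receptor of the same superfamily, had 33, 15 and 53 fragments in the controls and 0, 0 and 58 in the I-PpoI mice. Scaled log2 fold changes were -0.63 for Bcl2l1 and -0.45 for Fas, and their groups then overlapped.

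Phlda3, which blocks AKT at the membrane, was at 44.3, 62.8 and 36.5 FPKM in control mice and 56.8, 16.8 and 21.4 FPKM in I-PpoI mice. I-PpoI mouse 1 reached the control range, and mice 2 and 3 lay below it. Perp, a tetraspan protein of desmosomes and cell death, was at 6.53, 7.54 and 5.77 FPKM in control mice and 1.92, 1.83 and 7.65 FPKM in I-PpoI mice. I-PpoI mouse 3 was the highest library and the shallow ones, on 6 and 3 fragments, the lowest. Ei24, an endoplasmic reticulum protein, was at 19.9, 24.8 and 18.7 FPKM in control mice and 7.17, 3.43 and 11.9 FPKM in I-PpoI mice, with a scaled log2 fold change of -0.73 (SE 0.37, limma adjusted p = 0.33) and the strand shares given above. The fold change of Ei24 was -0.44 without I-PpoI mouse 2, -0.45 with factors from strand-clear genes and -0.08 without both shallow libraries. Aen, a nuclease of apoptosis, was at 3.08, 2.77 and 3.19 FPKM in control mice and 4.51, 3.29 and 1.99 FPKM in I-PpoI mice. Scaled, Aen had 5.24 and 5.59 scaled FPKM in the shallow libraries, on 42 and 16 fragments, against 2.4 in mouse 3 and at most 2.49 in the controls, and its log2 fold change was 0.69 (SE 0.34, limma adjusted p = 0.323), or 0.10 without the shallow libraries. Zmat3, an RNA-binding tumour suppressor, was at 0.522 to 1.53 FPKM in the I-PpoI libraries, below every control. Of the 11 apoptosis genes tested, 5 were above 0 and 6 below when scaled, with a median of -0.19.

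The 3 repair genes were low throughout. Ercc5, the nuclease XPG of nucleotide excision repair, ranged from 4.0 to 6.7 FPKM in the controls and from 1.42 to 2.76 FPKM in the I-PpoI libraries. Rrm2b, the p53-induced subunit of ribonucleotide reductase, ranged from 3.0 to 5.76 FPKM in the controls and was at 3.23 FPKM in I-PpoI mouse 3, with 12 and 6 fragments in mice 1 and 2. Polk, a translesion polymerase, was at 2.76 to 4.0 FPKM in the controls and 2.92, 0 and 2.69 FPKM in the I-PpoI mice. All 3 lay below 0 when scaled, at -0.65 to -0.37, and none passed. For Polk, though, I-PpoI mouse 1 (3.39 scaled FPKM) and mouse 3 (3.23) lay above every control (2.08 to 2.86). Only I-PpoI mouse 2, with 0 fragments of Polk, lay below the controls, and the log2 fold change of -0.42 rested on that library.

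The stress and metabolism genes held Dcxr and Ephx1, whose groups did not overlap when scaled. Neither is strand-clear: on the opposite strand within 5 kb lie Lrrc45 and Rac3 for Dcxr and Tmem63a for Ephx1. Dcxr (ENSMUSG00000039450, GRCm38 chromosome 11, 120725399 to 120727281, minus strand), a sugar and carbonyl reductase known from kidney tubules, stood at 12.6, 23.2 and 12.4 FPKM in control mice and 15.8, 24 and 20.9 FPKM in I-PpoI mice. As deposited the groups overlapped. Scaled, it was at 8.64, 17.4 and 9.67 scaled FPKM in control mice and 18.4, 40.7 and 25.2 scaled FPKM in I-PpoI mice, and every I-PpoI library lay above every control. The scaled log2 fold change was 1.16 (SE 0.42, limma adjusted p = 0.318), on 29, 23 and 319 fragments in the I-PpoI mice. Proximal tubule markers summed to 147, 416 and 1322 FPKM in the same libraries and 277 to 989.7 FPKM in the controls, and their part in the Dcxr values was not tested.

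Sesn2 (ENSMUSG00000028893, GRCm38 chromosome 4, 132492032 to 132510501, minus strand), a sestrin that restrains mTORC1 under oxidative and nutrient stress, was at 2.4, 2.8 and 3.6 FPKM in control mice and 2.33, 3.43 and 4.32 FPKM in I-PpoI mice. As deposited the groups overlapped, and I-PpoI mouse 3 was highest. Scaled, it was at 1.65, 2.1 and 2.8 scaled FPKM in control mice and 2.71, 5.83 and 5.19 scaled FPKM in I-PpoI mice, with I-PpoI mouse 1 just under the highest control, and the log2 fold change was 0.77 (SE 0.34, limma adjusted p = 0.318), or 1.17 by limma-voom and 0.49 with array weights. Its relative Sesn1 was at 7.69, 9.74 and 7.51 FPKM in control mice and 4.38, 2.4 and 4.65 FPKM in I-PpoI mice, where the I-PpoI libraries lay below the controls as deposited. The scaled log2 fold change of Sesn1 was -0.27, so the sestrins lay on opposite sides of 0; whether they differed from each other was not tested.

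Ephx1 (ENSMUSG00000038776, GRCm38 chromosome 1, 180976210 to 181020904, minus strand), which hydrolyses epoxides, was at 149, 139 and 123 FPKM in control mice and 54, 23.3 and 66.3 FPKM in I-PpoI mice. Every I-PpoI library lay below the controls as deposited, at 47.9 ± 22.2 FPKM in the I-PpoI group and 137 ± 13 FPKM in the controls (SD, n = 3 each). Scaled, it was at 102, 105 and 95.7 scaled FPKM in control mice and 62.8, 39.5 and 79.8 scaled FPKM in I-PpoI mice, and the groups still did not overlap. The scaled log2 fold change was -0.78 (SE 0.33, limma adjusted p = 0.318), on 169, 38 and 1724 fragments in the I-PpoI mice. It was -0.48 without I-PpoI mouse 2, -0.48 with factors from strand-clear genes and -0.31 without both shallow libraries. Ddit4l, an mTORC1 inhibitor, was at 9.66, 17.3 and 10.3 FPKM in control mice and 3.85, 1.23 and 8.34 FPKM in I-PpoI mice, with I-PpoI mouse 3 nearest the controls. Tigar, a bisphosphatase that lowers glycolytic flux, rested on 1 and 2 fragments in the shallow libraries and was at 1.99 FPKM in I-PpoI mouse 3 against 2.65 to 3.25 FPKM in the controls.

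Of the remaining targets, Sulf2, an extracellular heparan sulfatase, was at 31.9, 17.3 and 26.2 FPKM in control mice and 43.5, 16.7 and 13.2 FPKM in I-PpoI mice. The groups overlapped, with the highest library in I-PpoI mouse 1 and the lowest in I-PpoI mouse 3. Ncoa3 overlaps Sulf2 on the other strand, and Sulf2 held 39.0 to 47.8% of the pair in control mice, 41.0% in I-PpoI mouse 3 and 69.1% and 59.0% in the shallow libraries. Abhd4, a lipid hydrolase, was at 25.8, 26.9 and 24.8 FPKM in control mice and 12.9, 10.2 and 15.1 FPKM in I-PpoI mice. It was the steadiest gene among the controls, and the I-PpoI libraries lay below them. Scaled, Abhd4 was at 17.7, 20.2 and 19.3 scaled FPKM in control mice and 15, 17.3 and 18.1 scaled FPKM in I-PpoI mice, where I-PpoI mouse 3 was inside the control range. Cd80, a costimulatory ligand of immune cells, had at most 5 fragments in any library.

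I-PpoI mouse 3 is the deep I-PpoI library whose strand matched the controls, and it was set against the 3 controls with factors from these 4 libraries. With 1 library on one side there is no replicate check. Of the 31 genes, 20 lay inside the control range, 7 above it (22.6%, beside 23.8% of all tested genes) and 4 below it (12.9%, beside 23.9%). The median distance from the control mean was 0.03 on the log2 scale. Trp53 was at 15.4 scaled FPKM in I-PpoI mouse 3 and 13.2, 17.5 and 15.2 in the controls. Cdkn1a was at 21.3 scaled FPKM in I-PpoI mouse 3 and 13.5, 20.5 and 24.9 in the controls, and Mdm2 at 7.28 scaled FPKM in I-PpoI mouse 3 and 9.43, 6.78 and 7.24 in the controls. All 3 lay inside the control range, with distances of 0.02, 0.15 and -0.08 for Trp53, Cdkn1a and Mdm2.

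The 7 genes above the control range in I-PpoI mouse 3 were Ccng1, Dcxr, Perp, Polk, Sesn2, Tigar and Zmat3. Dcxr was at 30.6 scaled FPKM in I-PpoI mouse 3 and 10.3, 20.7 and 11.6 in the controls. Sesn2 was at 6.32 scaled FPKM in I-PpoI mouse 3 and 1.98, 2.5 and 3.35 in the controls, Perp at 11.2 scaled FPKM in I-PpoI mouse 3 and 5.38, 6.73 and 5.38 in the controls and Ccng1 at 22.4 scaled FPKM in I-PpoI mouse 3 and 12.7, 11 and 16 in the controls. Their distances from the control mean were 1.12, 1.04, 0.84 and 0.74 on the log2 scale for Dcxr, Sesn2, Perp and Ccng1, and those of Polk, Tigar and Zmat3 were 0.14 to 0.29. The 4 genes below were Gadd45a, Phlda3, Ephx1 and Bbc3, at -0.87, -0.38, -0.31 and -0.31. Limma, assuming that this library varies like the controls, called 0 of the 31 in either direction, beside 0.00668% of all tested genes higher and 0% lower, with unadjusted p under 0.05 for Perp and Sesn2 (higher, beside 5.85%) and Ephx1 (lower, beside 2.61%). Proximal tubule markers were highest in this library, at 1322 FPKM in sum, and mitochondrial genes took 48.2% of its fragments against 8.83 to 18.3% in the controls; their part in these values was not tested.

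**Figure D5:**
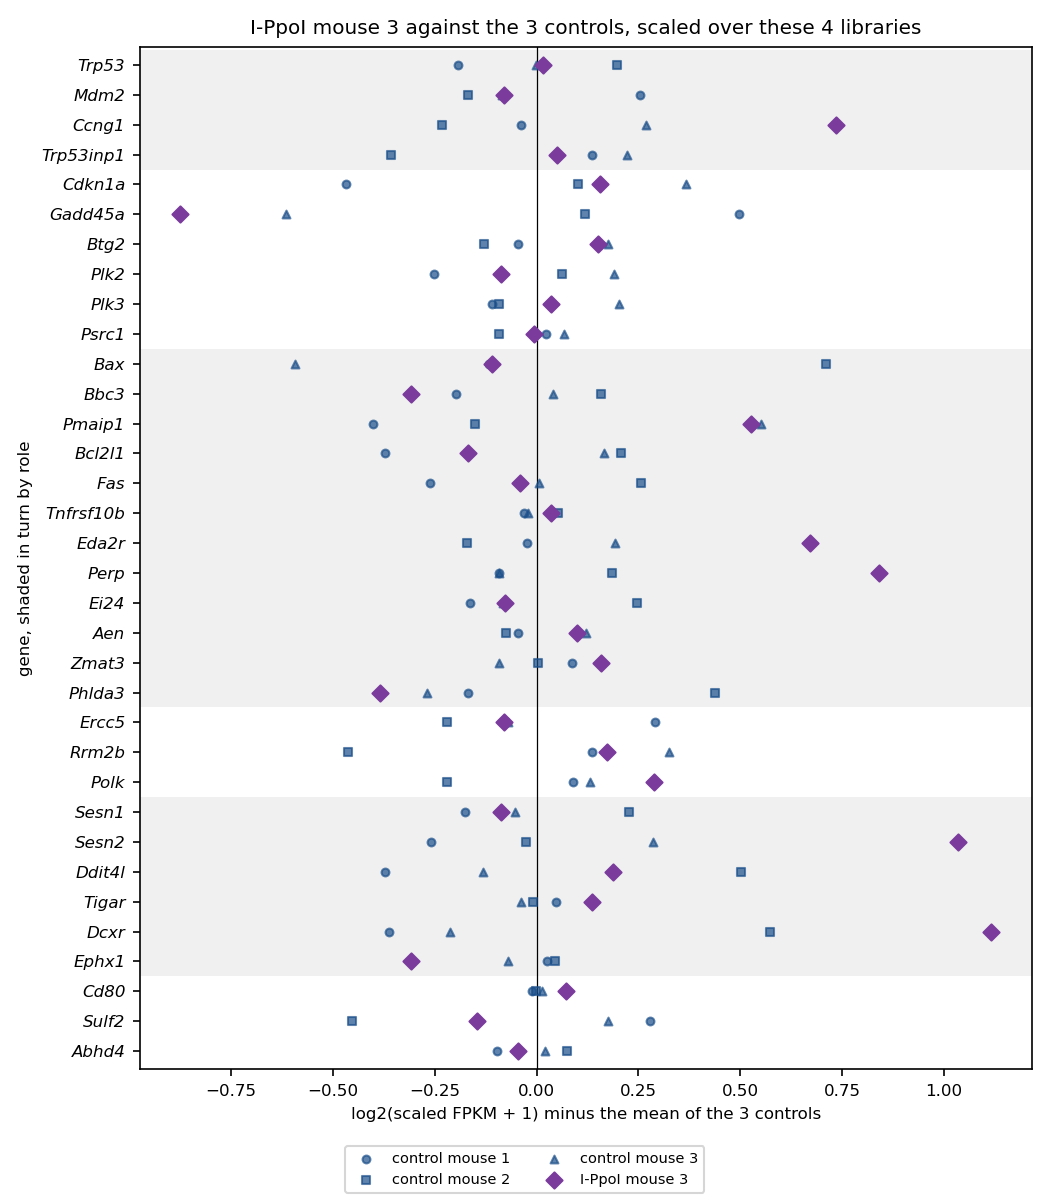
Distance of each of the 34 genes from the mean of the 3 controls in I-PpoI mouse 3 (diamonds) and in each control (other symbols), Psrc1, Eda2r and Cd80 below the tested level included, as log2(FPKM + 1) after scaling over these 4 libraries. Trp53, Cdkn1a and Mdm2 sit among the controls, Dcxr (1.12), Sesn2 (1.04), Perp (0.84) and Ccng1 (0.74) to their right and Gadd45a (-0.87) to their left.

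The 14 tested genes that are strand-clear were also fitted within the 3657 strand-clear genes, scaled on those genes. Limma called 0 of 14 and 0 of 3657 (0% in each direction). The median log2 fold change was -0.02, with 7 genes above 0 (Aen, Ccng1, Perp, Phlda3, Plk2, Pmaip1 and Sesn2) and 7 below (Bcl2l1, Btg2, Ddit4l, Ercc5, Fas, Trp53inp1 and Zmat3), beside a median of -0.03 and 47.4% above 0 over all strand-clear genes. Aen, Pmaip1 and Sesn2 had unadjusted p under 0.05 on the higher side, beside 4.21% of strand-clear genes, and none did on the lower side, beside 5.14%. Sesn2 alone did not overlap between groups (5.47% of strand-clear genes on that side; none of the 14 was lower without overlap, beside 9.38%), with a log2 fold change of 1.00 (SE 0.33, limma adjusted p = 0.489). Aen was at 0.93 (SE 0.39, limma adjusted p = 0.489) and Pmaip1 at 0.76 (SE 0.32, limma adjusted p = 0.489). Without I-PpoI mouse 3, Aen alone was called, higher, beside 3.58% of strand-clear genes. In the shallow libraries these values rest on 13 and 10 fragments for Sesn2, 42 and 16 for Aen and 10 and 3 for Pmaip1.

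The regulators of p53 were followed as a list of 30 genes, of which 25 were tested (Atr, Chek1, Cdkn2a, Trp63 and Trp73 were below the level). None passed as deposited or scaled by limma; at unadjusted p under 0.05 there were 10 lower and 0 higher as deposited, beside 32.2% and 4.23% of all tested genes, and 0 in either direction scaled, beside 2.87% lower and 5.43% higher. Scaled, 12 were above 0 and 13 below, beside 50.8% and 49.2% of all genes, with a median log2 fold change of -0.11 beside 0.02 over all genes. The genes of smallest p were Chek2, Trp53bp1, Ppp1r13l and Cop1, picked from these same data. Over all tested genes, the scaled groups did not overlap for 7.65% on the higher side and 9.76% on the lower. Chek2, the checkpoint kinase that phosphorylates p53, was at 2.91, 2.72 and 2.26 FPKM in control mice and 0.623, 0 and 1.1 FPKM in I-PpoI mice, and every I-PpoI library lay below every control, scaled too, on 3, 0 and 44 fragments. Trp53bp1, a break-site adaptor that binds p53, was at 4.47, 2.83 and 4.09 FPKM in control mice and 22.2, 14.9 and 2.38 FPKM in I-PpoI mice, high in the shallow libraries and lowest in I-PpoI mouse 3. Its exons overlap Tubgcp4 on the other strand, and it held 60.7 to 67.8% of the fragments of the pair in all 6 libraries. Ppp1r13l, an inhibitor of p53, was at 1.94, 2.31 and 2.28 FPKM in control mice and 2.94, 1.99 and 1.54 FPKM in I-PpoI mice. Scaled, its I-PpoI libraries lay above the controls, on 17, 6 and 74 fragments. Cop1, a ubiquitin ligase for p53, was at 3.48, 2.65 and 2.46 FPKM in control mice and 0.997, 0.136 and 1.44 FPKM in I-PpoI mice. Its I-PpoI libraries lay below the controls, scaled too, on 28, 2 and 336 fragments. None of Chek2, Trp53bp1, Ppp1r13l and Cop1 is strand-clear. Scaled log2 fold changes were -0.88 for Chek2, 1.89 for Trp53bp1, 0.55 for Ppp1r13l and -0.67 for Cop1, with limma adjusted p of 0.318 to 0.342.

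A further 40 genes known as p53 targets in other tissues gave the same counts of calls, 0 of 31 tested as deposited and 0 scaled by limma. At unadjusted p under 0.05 there were 14 lower and 0 higher as deposited, beside 32.2% and 4.23% of all tested genes. Scaled, there were 0 lower and 2 higher (Bid and Gdf15), beside 2.87% and 5.43%. Scaled, 11 were above 0 and 20 below, beside 50.8% and 49.2% of all genes, with a median of -0.17 beside 0.02. Bid, Gdf15, Cdip1 and Igfbp3 are named because they had the smallest p of the scaled fit in this list. Over all tested genes, the scaled groups did not overlap for 7.65% on the higher side and 9.76% on the lower. Bid, a BH3-only activator of BAX, was at 3.05, 3.96 and 3.62 FPKM in control mice and 20.2, 16.5 and 3.76 FPKM in I-PpoI mice. It was high in the shallow libraries, where it held 84.6% and 75.4% of the fragments shared with Bcl2l13 across from it, against 21.8 to 33.8% in the other 4 libraries. Scaled, Bid was at 2.1, 2.98 and 2.82 scaled FPKM in control mice and 23.5, 28 and 4.52 scaled FPKM in I-PpoI mice, every I-PpoI library above every control, with a log2 fold change of 2.13 (SE 0.67, limma adjusted p = 0.318). Gdf15, a stress-induced cytokine, is strand-clear and was at 14.3, 27.1 and 13.8 FPKM in control mice and 22.2, 19.98 and 17.8 FPKM in I-PpoI mice. The groups overlapped as deposited, and scaled every I-PpoI library lay above every control, with a log2 fold change of 0.98 (SE 0.37, limma adjusted p = 0.318). Cdip1, a p53 effector in death signalling, was at 6.74, 5.16 and 5.2 FPKM in control mice and 38.7, 24.4 and 3.7 FPKM in I-PpoI mice, with 75.5% and 73.0% of the fragments shared with Hmox2 in the shallow libraries and 36.9 to 54.9% in the others. Its groups overlapped when scaled, with a log2 fold change of 2.08 (SE 0.86, limma adjusted p = 0.318). Igfbp3, which binds insulin-like growth factors, was at 75, 75.5 and 80.9 FPKM in control mice and 25.3, 21 and 37.5 FPKM in I-PpoI mice. Its I-PpoI libraries lay below the controls, scaled too (log2 fold change -0.64, SE 0.27, limma adjusted p = 0.318). Like Bid and Cdip1, Igfbp3 is not strand-clear.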

How the data were processed

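RNA of CD31-sorted kidney cells from 6 mice was sequenced in paired-end runs of 100 cycles, per the labels' protocols. The authors deposited FPKM per gene, which is normalized to fragments and exon length. DESeq2 and the builds mm10 and GRCm38 stand in the submitters' processing notes. Which aligner or counter was used, and with which strand setting, is not given in the sources used. Of 55487 gene IDs, 55141 were in GENCODE M21 (54821 with the same coordinates).

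The 34 members and all lists were chosen with earlier results of these data known. Groups follow the labels (3 control, 3 I-PpoI). Limma 3.58.1 (R 4.3.3) was fitted to log2(FPKM + 1) for the 14962 genes averaging 1 FPKM or more, with no block term, p-values adjusted by Benjamini and Hochberg over them all and a threshold of 0.05, on FPKM as deposited, on FPKM divided by median-of-ratios factors, and within 3657 strand-clear genes (nuclear protein-coding, no opposite-strand gene within 5 kb of an exon). The fit was tested on simulated data first. FPKM times exon length gave whole fragments (within 0.05) for 98.5 to 98.6% of values under 1000 fragments. Same-numbered libraries correlated in their deviations from group means at 0.27, 0.20 and 0.19 over strand-clear genes, and at 0.14, 0.06 and 0.04 over all; no label ties a number to a litter or a day.

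Values in every library are given for members with a mean of at least 5 FPKM and for Trp53, Cdkn1a and Mdm2; statistics for those 3 and the 3 of smallest p per direction of the scaled fit (Dcxr, Sesn2, Aen; Ephx1, Ei24, Trp53inp1), and 4 genes per pathway list. Other values were named after they were seen. Alternatives covered pseudocounts, filters, scalings, limma-voom, array weights, the replicate block and left-out libraries. Scripts used scipy 1.17.1 (python 3.11.15) with numpy 2.4.6 and pandas 2.3.3; plots used matplotlib 3.10.9.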

Additional observations from a re-analysis of the deposited data

How the results depend on the processing

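The call of 0 p53 genes held for both pseudocounts, both filters, limma-voom on recovered fragments, factors from strand-clear genes and the replicate block. As deposited, 17 of the genes (17 lower) and 5153 of all genes (415 higher, 4738 lower) passed when each library was rescaled to a common FPKM total, and 14 (14 lower) and 6747 (2785 higher, 3962 lower) with array weights. Scaled, array weights called 2 of the genes (1 higher, 1 lower) and 4499 of all genes (3271 higher, 1228 lower), and without I-PpoI mice 1 and 2 there were 0 of the genes and 1 of all. Leaving out 1 library called 0 to 21 of the genes and 0 to 8438 of all as deposited, 0 to 8 and 0 to 5650 scaled, and 0 to 1 of the strand-clear genes of the list; every such call came from leaving out I-PpoI mouse 3, which leaves the 2 shallow libraries. The median log2 fold change of the 31 genes, -0.25, became 0.0234 with factors from strand-clear genes and 0.0345 without I-PpoI mice 1 and 2, and lay at -0.45 to -0.12 with 1 library left out.

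Direction turned for some genes. With factors from strand-clear genes the scaled log2 fold change was 0.0234 for Trp53 and 0.0417 for Mdm2. Without I-PpoI mice 1 and 2 it was 0.0151 for Trp53, 0.155 for Cdkn1a and 0.0498 for Trp53inp1, and as deposited -0.423 for Aen. Rescaled to a common total, Aen was at -0.873, Dcxr at -0.826 and Sesn2 at -0.766. As deposited, Sesn2 was at -0.0894 with array weights and between -0.0224 (without I-PpoI mouse 3) and 0.315 with 1 library left out. Aen as deposited lay between -0.163 and 0.278 with 1 library left out, below 0 without I-PpoI mouse 1 and at -0.000298 without control mouse 2. The cause was not tested. With the replicate block, which used the mouse number as a pair, 0 genes passed in each fit, and the pairing changed no call; over all genes not every same-numbered pair correlated above 0.1. No symbol had a second row, so the planned sum of rows was not run. Depth limits what can be seen at genes with under 10 fragments in those shallow libraries.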
